A study of Mus musculus with 6 samples.

Results

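The *Dlk1*-*Dio3* imprinted cluster is a group of genes on mouse chromosome 12 that are read from only 1 parental allele. Its protein-coding genes *Dlk1*, *Rtl1* and *Dio3* are known to be expressed from the paternal chromosome, and its long noncoding RNAs *Meg3* (also called *Gtl2*), *Rian* and *Mirg* from the maternal chromosome, where *Rian* and *Mirg* host arrays of small nucleolar RNAs and miRNAs. A methylated control region between *Dlk1* and *Meg3* sets which parental copy is used, and the noncoding RNAs of the cluster are known to vary between mouse stem cell lines, where they can be silenced in culture. These 6 genes were taken by name from the 55385 genes of the count table. They were selected on their measured counts in all 6 libraries, including the difference between the homozygous replicates, so their values are given as a description. Where counts of these genes past a threshold are printed, they support nothing.

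RNA was sequenced from G4 mESCs, an F1 hybrid line of 129/Sv and C57BL/6 mice, either wild-type or lacking the *Wnt6* anchor, a chromatin loop anchor on another chromosome, on 1 allele (heterozygous) or on both (homozygous). The deletions were made with CRISPR-Cas9 and recovered as single clones, all cells were grown with LIF on CD1 feeder cells, and the labels give 2 libraries per genotype. The study's methods call the replicates biological and give 3 for each condition, without saying how they were obtained, and which clone gave which library is not stated. Reads of the deleted gene *Wnt6* numbered 11 and 13 with the anchor intact, 6 and 4 in heterozygotes, and 0 and 0 in homozygotes, where 3 counts would correspond to 0.131 and 0.115 CPM (counts scaled to a common library total). Library totals ran from 23813912 to 28964706 counts. All 15 pluripotency markers were measured, with a summed level of 4258 to 4800 CPM over the 6 libraries. Of 34 fibroblast markers, taken here to mark feeder cells, 32 passed the filter on low counts. How much of their RNA came from stem cells was not tested. The summed level of all 34 was 6000 and 5964 CPM (wild-type), 4598 and 4593 CPM (heterozygous), and 3341 and 3310 CPM (homozygous) in replicates 1 and 2. *Lum* and *Fap* did not pass that filter, and *Fap* was at 0 in 1 homozygous library. Stem cell and feeder RNA were counted together.

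The cluster spans 828 kb of GRCm38 from the start of *Dlk1* to the end of *Dio3*. *Dlk1* (chromosome 12, 109452823 to 109463336) encodes a transmembrane protein related to the Notch ligands. *Meg3* (109541001 to 109571726) follows it by 77.7 kb on the same plus strand, with the control region known to lie between them. *Rtl1* (109589193 to 109600330), a coding gene derived from a retrotransposon, is read from the minus strand. *Rian* (109603940 to 109661716) and *Mirg* (109729764 to 109749460) lie on the plus strand, and *Dio3* (110279068 to 110281097), which encodes the deiodinase that inactivates thyroid hormone, lies 530 kb beyond *Mirg*.

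The windows upstream of *Meg3* and *Dlk1* are printed because these genes stand on either side of the control region and differed in how far their levels moved between libraries. They are the 250 bases before the annotated start on the plus strand, from RefSeq on GRCm38.p6 (chr12:109540746-109540995 for *Meg3* and chr12:109452573-109452822 for *Dlk1*), and capitals mark the motifs described after them.
Meg3: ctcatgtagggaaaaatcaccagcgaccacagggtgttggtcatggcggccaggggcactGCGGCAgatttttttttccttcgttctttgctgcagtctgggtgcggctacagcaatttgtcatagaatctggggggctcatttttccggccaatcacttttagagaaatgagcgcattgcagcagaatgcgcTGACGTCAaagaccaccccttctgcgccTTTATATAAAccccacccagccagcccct
Dlk1: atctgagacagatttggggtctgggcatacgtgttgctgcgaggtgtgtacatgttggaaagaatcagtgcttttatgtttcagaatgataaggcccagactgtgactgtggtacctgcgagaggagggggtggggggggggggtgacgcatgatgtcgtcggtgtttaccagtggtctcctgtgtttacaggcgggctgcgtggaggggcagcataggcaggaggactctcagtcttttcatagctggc
This *Meg3* window holds 10 CpG dinucleotides, the hexamer TGCCGC that ZFP57 is known to bind when methylated (here as its complement GCGGCA, 190 bases before the start), the palindromic cAMP response element TGACGTCA 57 bases before the start, and TATAAA 25 bases before it, which overlaps a match on the other strand. The *Dlk1* window holds 8 CpG dinucleotides and none of the 3 motifs. Searched on both strands over 32851 promoter windows of the same length, TGCCGC occurred in 8.68%, TGACGTCA in 1.55% and TATAAA in 12.4%, and the median window held 6 CpG dinucleotides. The last 2 motifs were chosen after the sequence was seen. RefSeq also has a window for a second *Meg3* start (chr12:109545148-109545397), which holds 0 CpG dinucleotides and none of the 3 motifs. RefSeq windows for *Rian* (chr12:109603695-109603944), *Mirg* (chr12:109734731-109734980) and *Dio3* (chr12:110278980-110279229) held 0, 10 and 21 CpG dinucleotides. RefSeq starts differ from the gene spans given above. The *Mirg* window lies inside the *Mirg* span, and the *Rian* and *Dio3* windows run past the starts given above. The *Dio3* window held TATAAA 31 bases before its RefSeq start, which is within the gene by the span above.

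Of the 58 miRNA hairpins RefSeq places in the span, 7 lie within *Rtl1*, 6 of them on the plus strand and thus antisense to it. The mature forms printed here from 5 of those 6 hairpins, with the seed (bases 2 to 8) in capitals, show which plus-strand products share the *Rtl1* locus, and no pair of them shares a seed.
miR-431-5p: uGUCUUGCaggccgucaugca
miR-433-3p: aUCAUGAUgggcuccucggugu
miR-127-3p: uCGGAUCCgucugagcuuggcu
miR-434-3p: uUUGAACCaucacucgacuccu
miR-136-5p: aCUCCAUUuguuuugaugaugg
They come from chr12:109590459-109590479 (miR-431-5p), chr12:109591781-109591802 (miR-433-3p), chr12:109592888-109592909 (miR-127-3p), chr12:109594565-109594586 (miR-434-3p) and chr12:109595331-109595352 (miR-136-5p). The library kit keeps the strand of the RNA, but the strand setting of the counting is not given in the sources used here, so *Rtl1* reads and reads of the maternal antisense transcript cannot be told apart. *Mirg* holds 14 hairpins and *Rian* 3, all on the plus strand. Mature miRNAs were not measured, since the libraries were made from polyadenylated RNA.

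The noncoding RNAs were by far the more abundant products of the cluster. With replicates 1 and 2 of each genotype given in turn, *Rian* was counted at 17614 and 14913 reads (wild-type), 15798 and 17079 (heterozygous), and 10944 and 14275 (homozygous). For *Meg3* the reads were 14330 and 10259 (wild-type), 12446 and 12251 (heterozygous), and 5349 and 9893 (homozygous). For *Mirg* they were 1209 and 1033 (wild-type), 1124 and 1191 (heterozygous), and 580 and 838 (homozygous). All 3 had their lowest count in homozygous replicate 1. In wild-type cells *Rian* and *Meg3* lay above 98.7% and 98.1% of the 16951 tested genes in CPM. The 3 RNAs took 0.103% to 0.114% of all wild-type counts and 0.117% to 0.120% of all heterozygous counts. In homozygous libraries they took 0.0709% and 0.0942%.

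The coding genes were measured at much lower depth. *Dlk1* was counted at 382 and 305 reads (wild-type), 371 and 347 (heterozygous), and 272 and 297 (homozygous). *Rtl1* was counted at 100 and 91 (wild-type), 100 and 131 (heterozygous), and 58 and 93 (homozygous). *Dio3* was counted at 55 and 58 (wild-type), 66 and 43 (heterozygous), and 43 and 40 (homozygous), so that it is the least precisely measured gene of the cluster. Per kilobase of annotated exon, wild-type levels were 32.4 ± 0.601 CPM per kb for *Rian*, 24.6 ± 3.36 for *Meg3*, 5.59 ± 0.0675 for *Mirg*, 2.20 ± 0.132 for *Dlk1*, 1.02 ± 0.139 for *Dio3* and 0.548 ± 0.0178 for *Rtl1* (SD, n = 2 each). The order was the same in each of the 6 libraries, and no 2 neighbours in it overlapped within a genotype. *Rian* exceeded *Rtl1* per kilobase by 45.5-fold to 65.8-fold over the libraries.

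**Figure D1:**
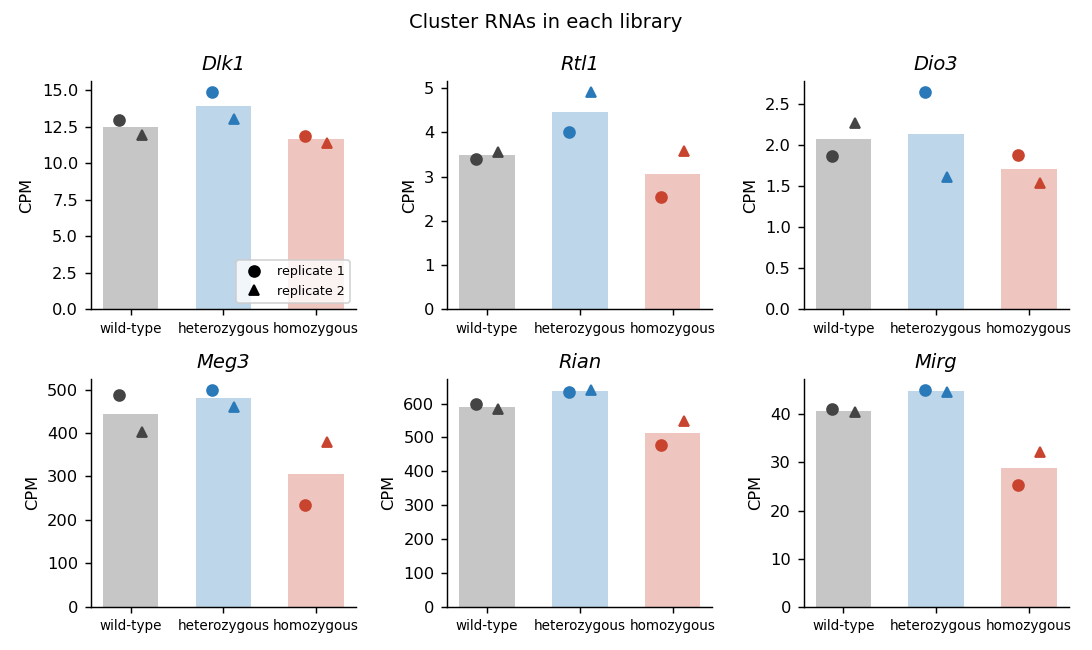
Level of each cluster gene in CPM with TMM scaling (y axes, from 0) by genotype (x axes). Bars are the means of 2 libraries, circles replicate 1 and triangles replicate 2. *Meg3* in homozygous replicate 1 sits at 233 CPM, below the other 5 libraries at 380 to 500 CPM.

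To ask whether the heterozygous deletion altered the cluster, each gene was compared with wild-type cells in an edgeR quasi-likelihood fit of all 6 libraries. Scaled with TMM, which adjusts each library's total for its composition, *Rian* was at 599 and 584 CPM in wild-type and 634 and 641 CPM in heterozygous libraries, a log2 fold change of 0.11 (SE 0.050). *Mirg* was at 41.1 and 40.4 CPM against 45.1 and 44.7, a log2 fold change of 0.14 (SE 0.075). *Meg3* was at 487 and 401 CPM against 500 and 460, and its log2 fold change of 0.11 had an SE of 0.13. For *Rian* and *Mirg* both heterozygous libraries stood just above both wild-type libraries, while those of *Meg3* overlapped.

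Among the coding genes, *Dlk1* was at 12.99 and 11.93 CPM in wild-type and 14.90 and 13.03 CPM in heterozygous libraries (log2 fold change 0.16, SE 0.094). *Rtl1* was at 3.40 and 3.56 CPM against 4.02 and 4.92 (0.36, SE 0.17). *Dio3* was at 1.87 and 2.27 CPM against 2.65 and 1.61 (0.04, SE 0.24). The heterozygous libraries of *Dio3* lay on either side of the wild-type pair. All 6 fitted changes were above 0, with a median of 0.12, where the median over all tested genes was 0.00. None of the 6 met both thresholds, an absolute log2 fold change over 1 and an adjusted p under 0.05, which 0.165% of the tested genes met, and 0 of 6 passed the adjusted p alone, which 5.14% did. By edgeR 2 of the 6 had an unadjusted p under 0.05, and DESeq2 called 0. The share of all tested genes at that unadjusted level was not computed and is at least 5.14%. For 4 of the 6 the heterozygous libraries were higher without overlap, as they were for 23.7% of the tested genes.

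In homozygous cells the 3 noncoding RNAs were lower, and each was lowest in replicate 1. *Meg3* was at 233 CPM in homozygous replicate 1 and 380 CPM in replicate 2, which is 52.5% and 85.5% of the wild-type mean of 444 ± 60.8 CPM (SD, n = 2). Its fitted log2 fold change was -0.53 (SE 0.13) against wild-type and -0.64 (SE 0.13) against heterozygous cells. *Mirg* was at 25.3 and 32.2 CPM, or 62.1% and 78.9% of its wild-type mean of 40.8 ± 0.492 CPM (SD, n = 2), with log2 fold changes of -0.50 (SE 0.080) and -0.64 (SE 0.079) in the same comparisons. Both homozygous libraries of each RNA lay below all 4 other libraries. *Rian* was at 478 and 548 CPM, or 80.8% and 92.7% of 591 ± 10.96 CPM (SD, n = 2), with log2 fold changes of -0.21 (SE 0.050) and -0.31 (SE 0.050). Of the 3 RNAs *Rian* had the smallest fitted change in both comparisons.

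**Figure D2:**
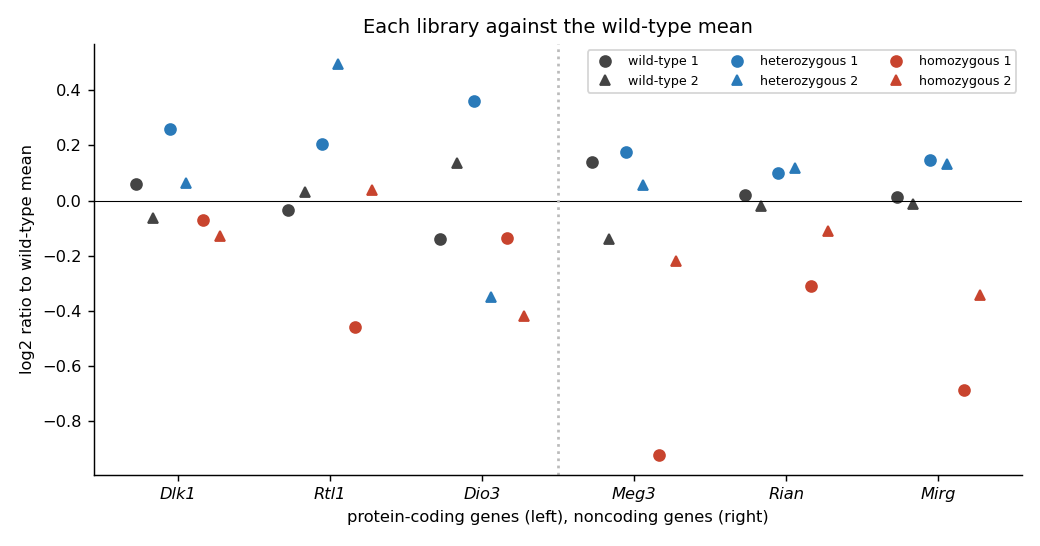
Log2 ratio of each library to the mean of the wild-type libraries (y axis) for the 6 genes (x axis). Circles are replicate 1 and triangles replicate 2; for the noncoding RNAs the homozygous points lie below 0 and replicate 1 lies below replicate 2, from -0.92 for *Meg3* to -0.31 for *Rian*.

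Among the coding genes *Dlk1* had the smallest fitted change in both homozygous comparisons. It was at 11.9 and 11.4 CPM in homozygous libraries, just below the wild-type pair, with a log2 fold change of -0.10 (SE 0.097) against wild-type and -0.26 (SE 0.096) against heterozygous cells. *Rtl1* was at 2.53 and 3.57 CPM, so that replicate 2 lay within 0.04 log2 of the wild-type mean and replicate 1 lay 0.46 below it, and the fitted changes were -0.18 (SE 0.18) and -0.54 (SE 0.18). *Dio3* was at 1.88 and 1.54 CPM (-0.28, SE 0.25, and -0.32, SE 0.25), and its homozygous and wild-type libraries overlapped. The comparisons share libraries, so their values are set side by side and are not independent.

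Counted over the cluster, all 6 fitted changes were below 0 in homozygous cells, with a median of -0.24 against wild-type and -0.43 against heterozygous cells, where the medians over all tested genes were -0.01 and -0.02. None was past both thresholds by edgeR or DESeq2, against 2.14% and 1.39% of the tested genes by edgeR. Of the 6, 3 and 5 had an unadjusted p under 0.05. The share of all tested genes at that unadjusted level was not computed. It is at least the 21.4% and 25.8% past the adjusted p in either direction. On the adjusted p alone *Meg3*, *Rian* and *Mirg* were lower than in wild-type cells, 3 of 6 beside 10.5% of the tested genes, and these 3 and *Rtl1* were lower than in heterozygous cells, 4 of 6 beside 12.9%. DESeq2 called *Rian* and *Mirg* alone in both comparisons, and robust estimation in edgeR did not call *Meg3* in either. With robust estimation, with total counts only, or with the replicate number as a block, *Dlk1* was also called lower than in heterozygous cells. Leaving out a library ended the calls of *Meg3* and *Rian* (wild-type replicate 1) and of *Rian* (homozygous replicate 1) against wild-type, and that of *Rtl1* (homozygous replicate 1 or heterozygous replicate 2) against heterozygous cells. The homozygous libraries lay below the wild-type libraries without overlap for 4 of 6 genes and below the heterozygous libraries for 5 of 6, as they did for 29.4% and 32.8% of the tested genes. Since the rule used these contrasts, nothing is read from these shares.

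Most of the fibroblast markers were lower in the same comparisons. Of the 32 tested, 24 were lower than in wild-type cells at the adjusted p alone when heterozygous cells were compared and 29 when homozygous cells were. None was higher in either, and their median log2 fold changes were -0.49 and -1.08. Over all 16951 tested genes 493 and 1786 were lower at that threshold. Past both thresholds 19 were lower in the homozygous deletion than in wild-type cells, beside 316 of all 16951 tested genes. They were led by the surface protein gene *Thy1* (-1.398), the collagen cross-linking enzyme gene *Lox* (-1.37), and the collagen gene *Col6a1* (-1.33, edgeR adjusted p at most 8.35e-09 for each). Against heterozygous cells 1 was lower past both thresholds, beside 152 of all tested genes. It was the transcription factor gene *Twist2* (-1.27, edgeR adjusted p = 0.0136), for which DESeq2 gave no adjusted p. On the edgeR adjusted p alone 26 markers were lower there and 1 was higher, *Mmp2* (0.32). Of all tested genes 2180 were lower and 2191 higher. Between the homozygous replicates the markers differed little, with a median log2 ratio of 0.00 and a summed level of 3341 and 3310 CPM, while *Meg3* differed by 0.70. In heterozygous libraries the summed marker level was below that of wild-type libraries, while the fitted changes of the 3 noncoding RNAs were above 0. The part of feeder RNA in the lower homozygous values was not tested, and in bulk RNA fewer cells of a type and less RNA per cell cannot be told apart.

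The replicates of a genotype were compared by the log2 ratio of replicate 2 to replicate 1. In homozygous libraries it was 0.70 for *Meg3* (counting error 0.024), a 1.63-fold difference, and 0.35 for *Mirg* (0.078), 0.20 for *Rian* (0.018) and 0.49 for *Rtl1* (0.24). For *Dlk1* it was -0.06 (0.12) and for *Dio3* -0.29 (0.32), both within their counting error. The RNAs from *Meg3* to *Mirg*, *Rtl1* included, were thus lower in homozygous replicate 1, and the outer genes *Dlk1* and *Dio3* were not. In wild-type libraries the ratio of *Meg3* was -0.28, with replicate 2 the lower one, and in heterozygous libraries it was -0.12. *Rian* and *Mirg* stayed within 0.04 of 0 in both genotypes. The ratio furthest from 0 outside the homozygous libraries was that of *Dio3* in heterozygous libraries, -0.71, from 66 and 43 counts.

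**Figure D3:**
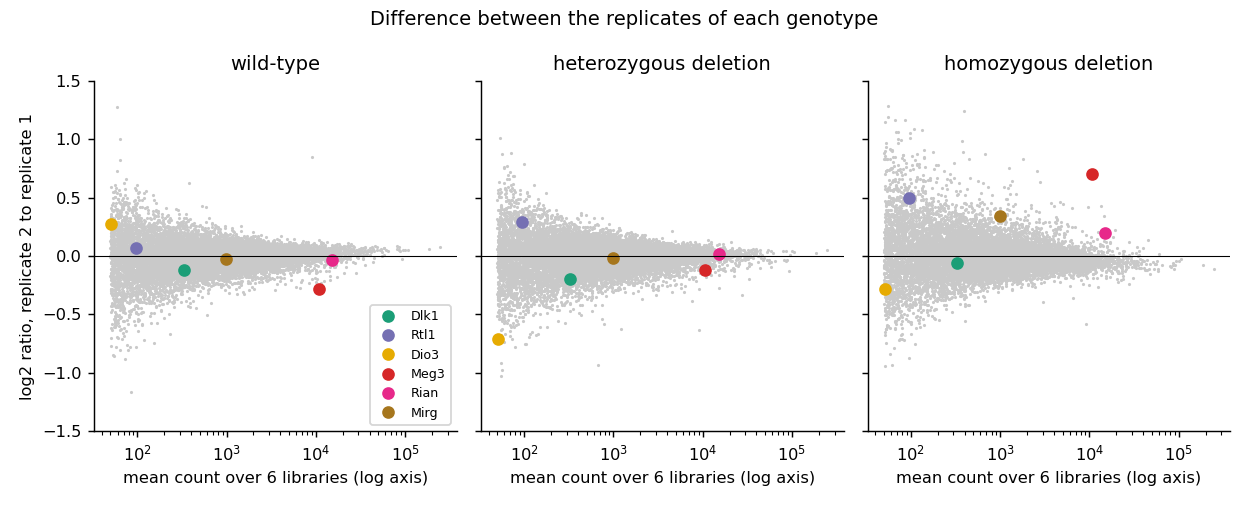
Log2 ratio of replicate 2 to replicate 1 (y axis) against mean count over the 6 libraries (x axis, log) in each genotype, for 12544 tested genes with a mean count of at least 50. Grey points are other genes and coloured points the cluster; in homozygous libraries *Meg3* stands at 0.70, apart from genes of similar count.

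None of the 6 genes differed by more than 1 on the log2 scale between replicates, which 1.93% of tested genes did in wild-type, 2.05% in heterozygous and 3.42% in homozygous libraries. Over 0.5 with homozygous replicate 1 the lower, a size chosen after the values were seen, was *Meg3* alone, beside 1.66% of the 12544 genes with a mean count of at least 50. In absolute size 97 of those genes differed more than *Meg3*, 94 of them with a mean count under 1000. Among the 5359 genes with a mean count of at least 1000, *Meg3* ranked 4 and *Rian* 158, and 11 genes in all exceeded 0.5.

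The gene class of the noncoding members showed a like difference. Over 311 other annotated long noncoding genes of that depth the median homozygous ratio was 0.17, and 61 of them (19.6%) exceeded 0.5. Over 11865 protein-coding genes the median was -0.01 and 100 (0.843%) exceeded it, and over 452 other genes of chromosome 12 the median was -0.02. In wild-type and heterozygous libraries the medians of the noncoding genes were -0.07 and 0.01. These noncoding genes took 0.672% of the counts in homozygous replicate 1 and 0.745% to 0.785% in the other 5 libraries. Of 8 noncoding RNAs known to stay in the nucleus, a list added after values were seen, 7 had that depth, with a median homozygous ratio of 0.47. *Miat* (0.83), *Neat1*, the scaffold RNA of paraspeckles (0.58), *Tsix* (0.49) and *Firre* (0.47) had the lower level in replicate 1. *Kcnq1ot1* (-0.39) and *Xist* (-0.33) had the higher level there, and *Malat1*, an RNA of nuclear speckles, stood at -0.05. The part of a class-wide difference between these libraries in the values of *Meg3*, *Rian* and *Mirg* was not tested.

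**Figure D4:**
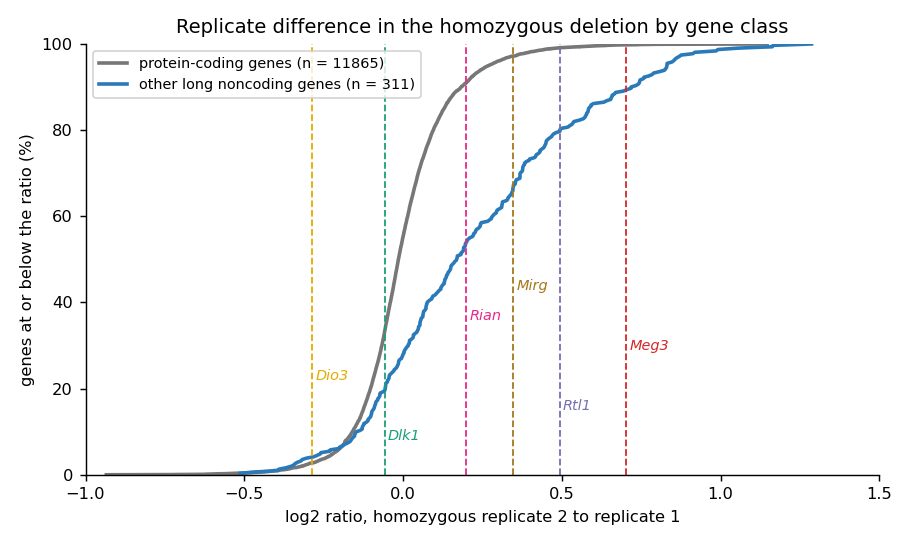
Percent of genes (y axis) at or below a given log2 ratio of homozygous replicate 2 to replicate 1 (x axis), for protein-coding and for other long noncoding genes with a mean count of at least 50. Dashed lines mark the 6 cluster genes; the noncoding curve lies to the right, with a median of 0.17, and *Meg3* lies at 0.70.

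Each change against wild-type was also computed without either homozygous library. Without replicate 1, the log2 fold change of *Meg3* was -0.23 (SE 0.065) against wild-type and -0.34 (SE 0.065) against heterozygous cells. Without replicate 2 the values were -0.93 (SE 0.069) and -1.04 (SE 0.069), and the latter passed both thresholds. *Mirg* was at -0.34 (SE 0.074) and -0.69 (SE 0.079) against wild-type without replicates 1 and 2, and *Rian* at -0.11 (SE 0.046) and -0.31 (SE 0.047). The lone homozygous library is taken to vary like the other genotypes in these fits. *Rtl1* was at 0.04 (SE 0.20) without replicate 1 and -0.46 (SE 0.22) without replicate 2, so its direction against wild-type rested on replicate 1. *Dlk1* stayed between -0.13 and -0.07.

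Ratios taken within a library do not depend on its scaling. For each *Rian* count there were 0.814 and 0.688 *Meg3* counts (wild-type), 0.788 and 0.717 (heterozygous), and 0.489 and 0.693 (homozygous). Homozygous replicate 1 was the lowest at 0.489, and the other 5 libraries ran from 0.688 to 0.814. The ratio of *Mirg* to *Rian* was 0.0686 to 0.0711 in the 4 wild-type and heterozygous libraries and lower in both homozygous libraries, at 0.0530 and 0.0587. There were 33.3 to 37.5 *Meg3* counts for each *Dlk1* count in 5 libraries and 19.7 in homozygous replicate 1. For *Rian* to *Dlk1* the 6 values ran from 40.2 to 49.2, with homozygous replicate 1 the lowest. The maternally expressed RNAs made up between 97.8% and 98.4% of the cluster's counts in every library.

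The small RNA genes inside the span gave few counts. Of 67 annotated miRNA genes 17 had any count, with sums of 30, 14, 22, 23, 7 and 19 over the libraries in the order used above, and none entered the test. Of 23 snoRNA genes 2 had any count and 1 was tested, *Gm24564*, which lies within *Rian* on the same strand. Its reads numbered 16 and 16 (wild-type), 11 and 13 (heterozygous), and 8 and 6 (homozygous; log2 fold change against wild-type -1.01, SE 0.45, edgeR adjusted p = 0.125). It had the largest fitted change of the tested neighbours in both homozygous comparisons. Reads of a snoRNA and of its host overlap, so the 2 cannot be fully separated.

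Neighbouring genes were taken within 1 Mb of either end of the span, together with non-members inside it, and 31 of these 168 genes entered the test. None was past both thresholds in any comparison by edgeR or DESeq2. By edgeR 5, 7 and 6 had an unadjusted p under 0.05 for heterozygous against wild-type, homozygous against wild-type and homozygous against heterozygous cells. The share of all tested genes at that level was not computed. It is at least 5.14%, 21.4% and 25.8%, the shares past the adjusted p. The nearest tested genes outside the ends were *Begain*, 385 kb before *Dlk1* (log2 fold changes -0.44 and -0.14 in the heterozygous and homozygous deletion against wild-type, edgeR adjusted p = 0.170 and 0.593), and the pseudogene *Gm6988*, 34.9 kb after *Dio3* (-0.60 and -0.19, edgeR adjusted p = 0.432 and 0.743). *Gm6988* was also the tested neighbour with the largest heterozygous change. On the adjusted p alone, 5 neighbours differed between homozygous and wild-type cells, named here after their values were seen, where 21.4% of all tested genes did, a larger share than 5 of 31. The microtubule-binding gene *Eml1* (-0.71, SE 0.098, edgeR adjusted p = 1.89e-05) and the kinase gene *Mok* (-0.69, SE 0.12, edgeR adjusted p = 0.000335) were lower, and *Dync1h1*, *Hsp90aa1* and *Wars* were higher by 0.15 to 0.22. The same 5 passed against heterozygous cells, beside 25.8% of the tested genes, and *Traf3* (0.23, edgeR adjusted p = 0.0386) was the 1 neighbour that passed between heterozygous and wild-type cells, beside 5.14%.

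*Eml1* lies 913 kb before *Dlk1* and *Mok* 527 kb after *Dio3*. Their homozygous replicates differed by -0.07 and 0.08 on the log2 scale, unlike *Meg3*. Over the 19 neighbours with a mean count of at least 50 the homozygous replicate ratio ran from -0.18 to 0.57 with a median of -0.04. *Yy1*, a transcription factor gene 633 kb before *Dlk1*, and *Ppp2r5c*, a phosphatase subunit gene 166 kb after *Dio3*, both with at least 2852 counts in every library and named here after their values were seen, had homozygous log2 fold changes of 0.03 (SE 0.043) and -0.07 (SE 0.045) against wild-type.

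**Figure D5:**
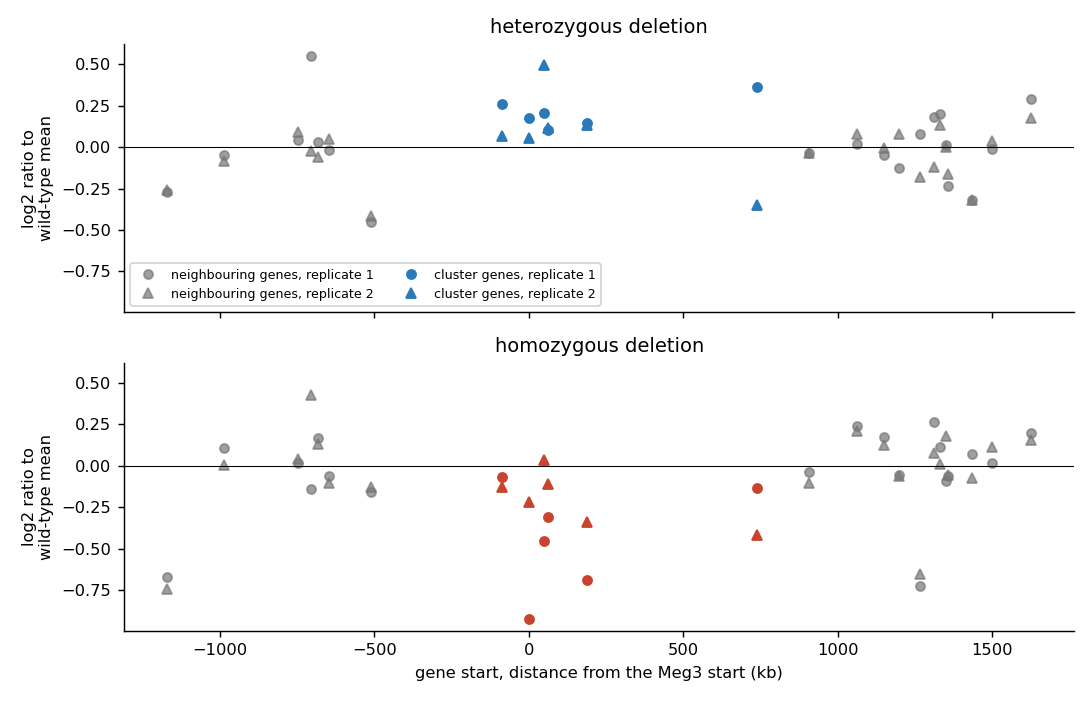
Log2 ratio of each deletion library to the wild-type mean (y axis) by distance of the gene start from the *Meg3* start in kb (x axis), for the 6 cluster genes (coloured) and 19 neighbours with a mean count of at least 50 (grey). In the homozygous panel the lowest point is *Meg3* in replicate 1 at -0.92, and most neighbours lie near 0.

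Genes whose profile over the 6 libraries was closest to each member were found by the root mean square difference of centred log2 CPM. For *Meg3* these were *Snhg11*, *Nlrc3*, *C130013H08Rik*, *C030037D09Rik* and *Dnase1l2*, at 0.048 to 0.070, none of them on chromosome 12. *Snhg11* is itself a long noncoding RNA gene and had a homozygous replicate ratio of 0.64. For *Rian* they were *Emc1*, *4933434E20Rik*, *Snapc4*, *Abcd4* and *2700038G22Rik*, at 0.0046 to 0.032. For *Mirg* they were *Afap1*, *Zc3h7a*, *Nrbp2*, *Glis3* and *Cd68*, at 0.040 to 0.055. *Mirg* was the member closest to *Meg3*, as the gene of rank 79 among the tested genes, and *Rian* stood at rank 909. *Dlk1* was closest to *Amotl2*, *Fam117a*, *Cdc42bpg*, *Rgs9bp* and *Nmrk1* at 0.028 to 0.044. *Rtl1* was closest to *Pih1d2*, *Dlec1*, *Hs3st3b1*, *Gm43737* and *Eme2* at 0.043 to 0.069. *Dio3*, whose counts are low, was closest to *Sox8*, *Ufsp1*, *Irx5*, *Cyp26a1* and *Gm3507* at 0.055 to 0.098. With 6 points that share their libraries, these are the nearest of 16950 candidates and carry no test.

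Imprinted genes elsewhere moved in both directions. Of 24 tested paternally expressed genes, 2 were lower in the heterozygous deletion past both thresholds, which 0.165% of all tested genes passed. They were *Peg13* (log2 fold change -2.14, edgeR adjusted p = 8.22e-08) and *Nap1l5* (28 and 24 reads in wild-type cells, 0 and 1 in heterozygotes, 28 and 35 in homozygotes). DESeq2 called *Peg13* and gave no adjusted p for *Nap1l5*. In the homozygous deletion 0 were past both thresholds by either tool, beside 2.14% of all tested genes by edgeR, with 12 at an unadjusted p under 0.05. Against heterozygous cells *Peg13* and *Nap1l5* were higher in homozygous cells past both thresholds. The antisense RNA gene *Airn* was lower (-1.001, edgeR adjusted p = 0.0165). Of all tested genes 1.39% passed there. DESeq2 called *Peg13* there too and gave no adjusted p for the other two, and its log2 fold change of *Airn* was -0.99, short of the threshold. Of 18 tested maternally expressed genes 0 passed both thresholds in any comparison by edgeR or DESeq2, with 3, 13 and 13 at an unadjusted p under 0.05 for heterozygous against wild-type, homozygous against wild-type and homozygous against heterozygous cells. On the adjusted p alone 7 were higher and 4 lower in homozygous than in wild-type cells, beside 10.9% and 10.5% of all tested genes. The noncoding RNA *H19* had the largest change (0.97, SE 0.055, edgeR adjusted p = 1.29e-10), upward where *Meg3* was lower. The homozygous replicates of *H19* differed by -0.10 on the log2 scale. The median homozygous log2 fold change was 0.10 over the paternal and 0.18 over the maternal list. No share of all tested genes was computed at the unadjusted p, for these lists or those below.

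The genes listed as regulators of the cluster imprint, *Tet1*, *Tet2*, *Dnmt3a* and *Dnmt3l* among them, were measured at high counts. Of 18 regulators, all tested, 0 passed both thresholds in any comparison by edgeR or DESeq2, with 6, 9 and 11 at an unadjusted p under 0.05 in the same 3 comparisons. On the adjusted p alone against wild-type, 2 regulators were lower and 0 higher in heterozygotes, and 1 was lower and 7 higher in homozygotes. Of all 16951 tested genes, 493 were lower and 378 higher in heterozygotes, and 1786 lower and 1847 higher in homozygotes. *Ctcf*, which encodes the insulator protein, had the largest change, 0.50 (SE 0.041, edgeR adjusted p = 1.79e-08) in homozygous against heterozygous cells. *Zfp57*, whose product binds the methylated hexamer described above, had a homozygous log2 fold change of -0.17 (edgeR adjusted p = 0.0397, DESeq2 adjusted p = 0.0807) and a homozygous replicate ratio of 0.25, and is named here after its values were seen.

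Genes tied to the roles of the coding members were examined next. Of 15 tested Notch ligands, receptors and targets, 1 passed both thresholds, in homozygous against heterozygous cells, beside 1.39% of all tested genes. It was *Dlk2*, the paralog of *Dlk1*, which was lower in homozygous cells (-1.41, SE 0.31, edgeR adjusted p = 0.00218) with 18 and 13 counts against 43 and 44. DESeq2 gave it a log2 fold change of -1.39 and no adjusted p. On the adjusted p alone 4 were lower and 0 higher in homozygous than in wild-type cells by edgeR, beside 10.5% and 10.9% of all tested genes. They were the ligand genes *Dll1* and *Dll3*, the receptor gene *Notch4* and the target *Hes1*. DESeq2 called 0, and its adjusted p for these 4 ran from 0.0529 to 0.179. Of 6 tested thyroid hormone genes 0 passed either rule in any comparison by edgeR or DESeq2, with 2, 1 and 0 at an unadjusted p under 0.05 in the order above, and *Thrb*, a hormone receptor gene, had the largest fitted change (-0.61, SE 0.56, edgeR adjusted p = 0.461, homozygous against heterozygous). Of 7 tested retrotransposon-derived genes related to *Rtl1* 0 passed both thresholds by either tool, with 1, 1 and 2 at an unadjusted p under 0.05, and *Rtl8c* had the largest change (-0.83, SE 0.33, edgeR adjusted p = 0.0746) in the same comparison. The pluripotency markers had 0 of 15 past both thresholds in any comparison by either tool, with 11, 4 and 11 at an unadjusted p under 0.05. On the edgeR adjusted p alone 7 were lower and 0 higher in heterozygous than in wild-type cells (493 and 378 of all tested genes). In homozygous cells 1 was lower and 1 higher than in wild-type cells. Against heterozygous cells 11 were higher and 0 lower there (2191 and 2180 of all tested genes). DESeq2 called 5, 1 and 9 on its adjusted p. *Zfp42* was furthest from 0 (0.53, SE 0.045, edgeR adjusted p = 2.82e-08, homozygous against heterozygous). The homozygous replicate ratios of the markers had a median of -0.04.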

How the data were processed

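Polyadenylated RNA of 6 mESC libraries (3 genotypes, 2 replicates each by the labels; the methods state 3) was sequenced by the authors, who deposited raw read counts per gene for 55385 genes, not normalized. The submitters' processing notes name Trimmomatic 0.39, STAR 2.6.1d, SAMtools 1.9, featureCounts 1.6.4, DESeq2 1.22.2 and GRCm38, without their settings. The 16951 genes that reached 10 counts in 2 or more libraries were fitted in edgeR 4.0.16 (R 4.3.3) with TMM scaling and a quasi-likelihood test of 3 genotypes, with Benjamini-Hochberg adjustment over all tested genes. Calls needed both an adjusted p under 0.05 and a log2 fold change beyond 1 in either direction. The common biological coefficient of variation was 3.52%. Replicate ratios used TMM-scaled CPM with a prior of 0.5 counts, and their counting errors cover counting only. Positions and exon lengths came from GENCODE M21 on GRCm38, sequences from RefSeq tables, which held promoter windows for 5 of the 6 genes.

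The members and lists were chosen with earlier results of these data known. The text names the 6 members, neighbours past the threshold or otherwise the nearest and the most changed, the most changed genes of each list (at most 4), and the 5 nearest profiles. The fit was tested on simulated counts. Alternatives were other scalings and filters, DESeq2 1.42.0, robust estimation, calls on the adjusted p alone, fits to the compared libraries, a replicate block, and each library left out.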

Additional observations from a re-analysis of the deposited data

How the results depend on the processing

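The counts of cluster genes and of neighbours past both thresholds, 0 in every comparison, remained 0 under other scalings, other filters, DESeq2, only the libraries compared and robust estimation. Without the fold-change threshold the cluster count was 3 for homozygous against wild-type and 4 for homozygous against heterozygous cells, and the neighbour count was 1 for heterozygous against wild-type, 5 for homozygous against wild-type and 5 for homozygous against heterozygous cells. With each library left out in turn, the cluster count ran from 0 to 1 for homozygous against heterozygous cells, where *Meg3* passed at -1.04 without homozygous replicate 2, and was 0 in the other comparisons. The neighbour count ran from 0 to 1 in both homozygous comparisons, where *Gm19605*, with 12 and 34 counts in the homozygous libraries, passed without that same library. Deviations of same-numbered libraries correlated at 0.029, -0.089 and 0.0084 across genes, so no strong shared deviation was seen. This cannot show whether same-numbered libraries were prepared together, which is not stated. With the replicate number as a block all 6 counts were 0.

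Of 252 refitted fold changes of the 6 genes, 242 moved by less than the replicate SD pooled over the genotypes compared (root mean square, log2 CPM) and 10 by more, all 10 with 1 homozygous or 1 heterozygous library left out. Of 54 rescaled replicate ratios 2 moved by more than their counting error, those of *Meg3* and *Rian* in homozygous libraries, to 0.73 and 0.23 with total counts only. DESeq2 gave no adjusted p for 4273, 3287 and 3615 tested genes (heterozygous against wild-type, homozygous against wild-type, homozygous against heterozygous), so whether it would keep the calls of *Nap1l5*, *Dlk2* and *Twist2* is not known. Leaving out homozygous replicate 1 took *Twist2* below the threshold and left the feeder marker count against wild-type at 19.

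With 2 libraries per genotype, a difference between the homozygous replicates cannot be assigned to either library. *Dio3* and *Rtl1* had at most 66 and 131 counts in any library, so changes of the size seen for *Rian* were not detectable for them at this depth.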
